A study of Mus musculus with 6 samples.

Results

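The genes described here are the 6 genes whose symbols begin with *Cebp*, namely *Cebpa*, *Cebpb*, *Cebpd*, *Cebpe*, *Cebpg* and *Cebpz*, together with *Irf8*. They were taken by symbol and not by a threshold on their values, but earlier results of these data were known when they were chosen. Each of the 7 had 1 row in the tables, which list 26216 gene names. Expression was measured by RNA-seq in LT/ST-HSCs (long-term and short-term hematopoietic stem cells, gated as lineage-negative, Annexin-V-negative, sca1+ c-kit+ CD150+ CD48- bone marrow cells). The cells came from mixed chimeras, that is, lethally irradiated Ly5.1/Ly5.2 mice that had received equal shares of *Ltbr*-/- and Ly5.1 LSKs, and were sorted 6 weeks after transplantation. There were 3 *Ltbr*-/- samples and 3 Ly5.1 samples, for which cells of 6 chimeras had been combined into 3 pools per genotype. *Ltbr*-/- cells lack the lymphotoxin beta receptor in all cells through a germline deletion within the gene, and Ly5.1 cells are wild type at *Ltbr* and carry the congenic CD45 allele. Donors were 13, 10 and 10 to 13 weeks old for *Ltbr*-/- replicates 1, 2 and 3, and 7 to 13 weeks old for each Ly5.1 replicate. Both genotypes shared the same irradiated hosts. Age and the congenic region cannot be told apart from the genotype, and none of the 7 genes lies on chromosome 1 or 6, which carry the CD45 gene and *Ltbr*.

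C/EBP proteins are basic leucine zipper (bZIP) transcription factors that bind DNA as pairs and steer myeloid differentiation. C/EBPα starts the granulocyte and monocyte program and restrains stem cell division, C/EBPβ takes over in emergency granulopoiesis, C/EBPδ responds to inflammatory cues, and C/EBPε is the late factor that switches on secondary granule genes in neutrophils and eosinophil genes. C/EBPγ has no activation domain of its own and pairs with other bZIP proteins such as ATF4, Cebpz is a nucleolar protein of ribosome assembly that shares the name but not the zipper, and IRF8 directs progenitors towards monocytes and dendritic cells and away from neutrophils.

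Values are the deposited signal in arbitrary units. From the range of the values and the study's methods they were taken to be 2 to the power of a regularized log value, which would already include the scaling between samples and draw weakly expressed genes towards their mean, though the tables do not state this. The methods give a mean read number over the libraries, but the tables used hold no counts, so the reads behind a single gene's value are unknown. The summed signal was between 11689052 and 11983000 in Ly5.1 and between 12974106 and 13281050 in *Ltbr*-/- samples, and Pearson correlations between samples over the tested genes were 0.997 to 0.998 within and 0.992 to 0.996 between the groups. *Ltbr* was at 24.2, 26.4 and 23.1 in the *Ltbr*-/- samples and at 564, 549 and 522 in the Ly5.1 samples, a log2 fold change of −4.47 (limma, adjusted p = 2.15e-32), so the libraries matched their labels. A gene is called here when limma gave an adjusted p under 0.05, with Benjamini-Hochberg adjustment over the 13108 tested genes, and a fold of at least 1.5. With 3 against 3 samples an exact permutation test of a single gene cannot go below p = 0.1. All fold changes are *Ltbr*-/- minus Ly5.1 on the log2 scale.

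*Cebpe*, *Cebpb* and *Cebpd* were higher in *Ltbr*-/- than in Ly5.1 LT/ST-HSCs, by 1.79-fold, 1.42-fold and 1.24-fold, and their groups did not overlap, whereas *Cebpa*, *Cebpg*, *Cebpz* and *Irf8* did not pass the test. One gene of the 7, *Cebpe*, was called, where 2.78% of all tested genes were called, 2.72% higher and 0.061% lower. An adjusted p under 0.05, with no fold threshold, was reached by 3 of the 7, all of them higher, where the same rule took 14.8% of tested genes, 10.6% higher and 4.18% lower. The groups did not overlap for 3 of the 7 genes, against 30.4% of all tested genes. Over the 7 genes the median log2 fold change was 0.14, and over all tested genes it was −0.01. When every sample was instead centred on its ribosomal protein genes, a scaling that moved the median of all tested genes to −0.87, all 7 values were below 0 and the order of the 7 was kept by construction. *Cebpe* was then at −0.021, *Cebpb* at −0.36, *Cebpd* at −0.55 and *Cebpg* at −0.72, each above the shifted median, and *Cebpa*, *Cebpz* and *Irf8* were at −0.94, −0.94 and −0.96.

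**Figure D1:**
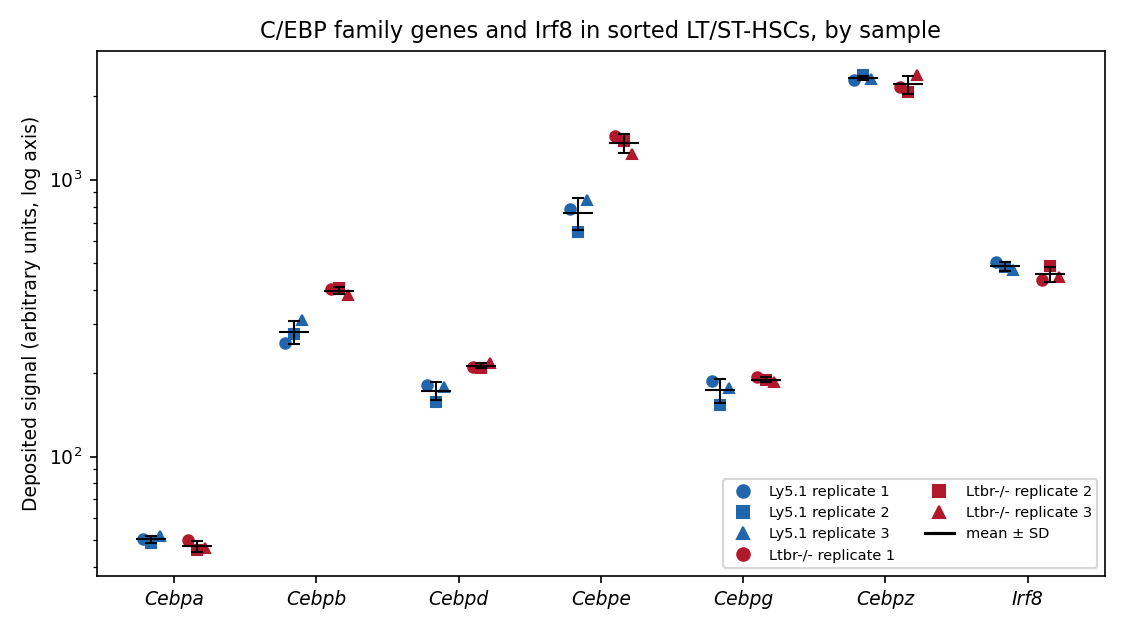
Deposited signal (arbitrary units, log axis) of the 7 genes in the 3 Ly5.1 (blue) and 3 Ltbr-/- (red) samples, with marker shape for the replicate number and black bars for the mean ± SD. The groups are separate for Cebpb, Cebpd and Cebpe and overlap for the other 4 genes.

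*Cebpe*, on the minus strand of chromosome 14 (chr14:54710360-54712174, GRCm38), encodes the late granulocytic factor. Its signal was 1439, 1384 and 1238 in *Ltbr*-/- replicates 1 to 3 and 787, 647 and 846 in Ly5.1 replicates 1 to 3. Every *Ltbr*-/- sample was above every Ly5.1 sample, and the lowest Ly5.1 value was that of replicate 2. The log2 fold change was 0.84 (SE 0.10, 95% interval 0.64 to 1.03, limma, adjusted p = 1.06e-08, exact permutation p = 0.1), so that the interval lay above the 1.5-fold line. It was between 0.73 and 0.92 without any 1 of the 6 samples. Over the alternatives other than leaving out samples and centring on ribosomal protein genes, the highest limma adjusted p of *Cebpe* was 0.0419.

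*Cebpb* (chr2:167688915-167690418, plus strand, a gene with a single exon) encodes the factor of stress granulopoiesis. It was at 402, 405 and 385 in *Ltbr*-/- samples and at 257, 276 and 311 in Ly5.1 samples, and again no sample of one group reached the other. Its log2 fold change of 0.50 (SE 0.10, 95% interval 0.31 to 0.69, limma, adjusted p = 0.000151) passed the p threshold but not the 1.5-fold threshold, and without a filter on low values its adjusted p was 0.0541. *Tmem189* runs on the opposite strand. In the GENCODE annotation its longest model shares 908 bases with *Cebpb*, and in RefSeq it ends 27370 bases away. It was at 290, 307 and 299 against 268, 244 and 275, a log2 fold change of 0.19 (limma, adjusted p = 0.188). The kit was stranded but whether counting used the strand is not stated in the sources used here, so reads of this pair could have been mixed where the longer model is transcribed. *Cebpa*, *Cebpd*, *Cebpg* and *Cebpz* also overlap annotated genes on the other strand, so the same limit holds for them. *Cebpg* overlaps *Gm44836* and *Gm45094* on its own strand as well, and *Irf8* lies within the longer model *Gm20388* on its own strand. Reads of *Cebpg* and *Irf8* could be shared with these models even if counting used the strand.

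The promoter of *Cebpb* is shown because among the 4 of the 7 genes with a window in the RefSeq promoter table (*Cebpa*, *Cebpb*, *Cebpg* and *Irf8*) it alone had matches to TGACG, the cyclic AMP response element half-site bound by CREB and ATF factors. The 200 bases before the start site (chr2:167688715-167688914, GRCm38.p6, plus strand) hold 3 matches in capitals, at 53 and 7 bases before the start on the printed strand and, as CGTCA, at 180 bases before it on the other strand.
Cebpb: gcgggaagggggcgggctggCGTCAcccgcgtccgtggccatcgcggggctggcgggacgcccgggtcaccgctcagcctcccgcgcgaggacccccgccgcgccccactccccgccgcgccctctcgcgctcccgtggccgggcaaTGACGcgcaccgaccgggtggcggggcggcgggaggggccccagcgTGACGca
Both strands of all 32851 windows of 250 bases before to 50 after a start were searched, and 20.8% hold at least 1 such match. A match describes the letters only.

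*Cebpd* (chr16:15887286-15891031, plus strand) encodes the cytokine-induced factor. It was at 211, 209 and 219 in *Ltbr*-/- samples and at 182, 158 and 178 in Ly5.1 samples. The groups did not overlap, and their gap was smaller than for *Cebpb* or *Cebpe*. The log2 fold change was 0.31 (SE 0.09, 95% interval 0.12 to 0.49, limma, adjusted p = 0.0175). *Cebpd* thus passed the p threshold but not the 1.5-fold threshold. The p threshold was no longer passed without *Ltbr*-/- replicate 3 (0.29, limma, adjusted p = 0.076) or without Ly5.1 replicate 2 (0.24, limma, adjusted p = 0.119). Nor was it passed with no filter on low values (limma, adjusted p = 0.110).

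*Cebpa* (chr7:35119293-35121928, plus strand), the gene of the factor that opens the granulocyte and monocyte program, had the lowest signal of the 7. It was at 49.8, 45.8 and 46.6 in *Ltbr*-/- samples and at 50.3, 48.6 and 51.8 in Ly5.1 samples. The groups overlapped through *Ltbr*-/- replicate 1, and the log2 fold change was −0.08 with a 95% interval from −0.21 to 0.04 (limma, adjusted p = 0.391). *Cebpg* (chr7:35046422-35056573, minus strand), the neighbour of *Cebpa* on chromosome 7, was at 194, 188 and 186 against 188, 154 and 178. Only Ly5.1 replicate 2 stood well below the other 5 samples, and the log2 fold change was 0.14 with an interval from −0.05 to 0.32 (limma, adjusted p = 0.359).

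*Cebpz* (chr17:78919006-78937066, minus strand), the ribosome assembly gene, was at 2164, 2070 and 2398 in *Ltbr*-/- samples and at 2300, 2386 and 2317 in Ly5.1 samples. The 3 *Ltbr*-/- samples spanned the Ly5.1 range on both sides, and the log2 fold change was −0.08 with an interval from −0.25 to 0.08 (limma, adjusted p = 0.569). *Irf8* (chr8:120736358-120756694, plus strand) was at 435, 486 and 444 against 505, 482 and 472. *Ltbr*-/- replicate 2 lay within the Ly5.1 range and the other 2 below it, and the log2 fold change was −0.10 with an interval from −0.28 to 0.09 (limma, adjusted p = 0.550). On the deposited scale the intervals of these 4 genes exclude a 1.5-fold difference in either direction but not smaller ones. They cover neither the choice of scaling nor a shrinkage of weakly expressed genes. With samples centred on ribosomal protein genes *Cebpa*, *Cebpg*, *Cebpz* and *Irf8* were at −0.94, −0.72, −0.94 and −0.96, each past 1.5-fold.

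**Figure D2:**
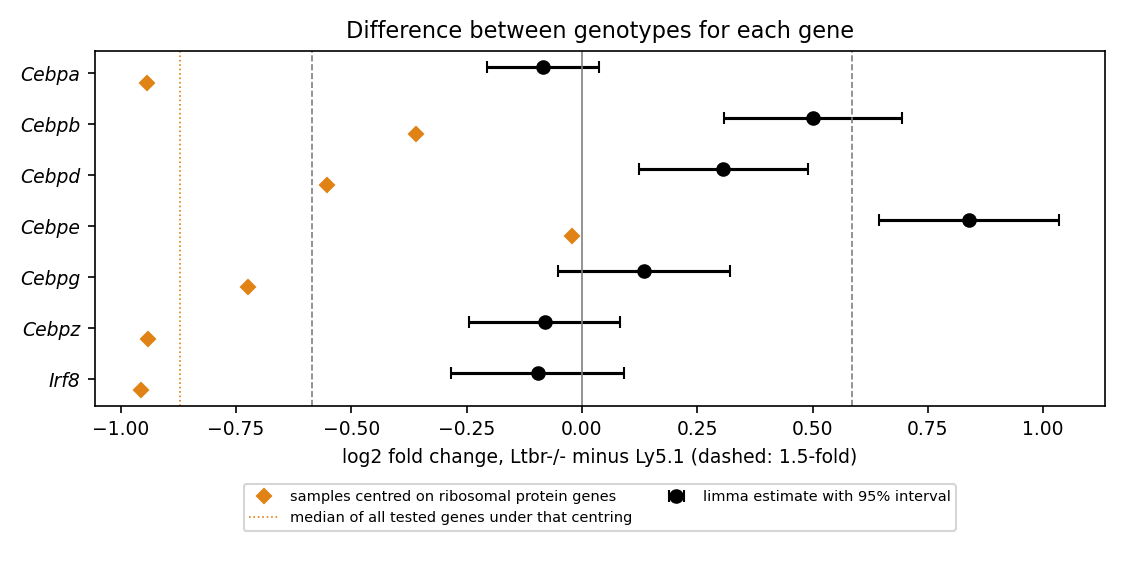
Log2 fold change of each gene between Ltbr-/- and Ly5.1 samples (black points with 95% intervals from limma, n = 3 per group), with dashed lines at 1.5-fold and, in orange, the same values with samples centred on ribosomal protein genes and the shifted median of all tested genes (dotted). Cebpe is past the 1.5-fold line at 0.84 and falls to −0.021 under the centring, with all 7 genes shifted by the same amount.

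Levels between genes were compared as signal per kilobase of the longest protein-coding transcript. In Ly5.1 samples the order was *Cebpe* (612 ± 82.1 per kilobase, SD, n = 3), *Cebpz* (574 ± 11.2), *Cebpb* (187 ± 18.3), *Irf8* (171 ± 5.93), *Cebpd* (46.1 ± 3.46), *Cebpg* (36.8 ± 3.68) and *Cebpa* (19.1 ± 0.611). *Cebpe* and *Cebpz* did not differ beyond their spread there, nor did *Cebpb* and *Irf8*. In *Ltbr*-/- samples the order was the same, with *Cebpe* at 1091 ± 83.8, *Cebpz* at 543 ± 41.5, *Cebpb* at 264 ± 7.37, *Irf8* at 160 ± 9.61, *Cebpd* at 56.9 ± 1.33, *Cebpg* at 40.3 ± 0.854 and *Cebpa* at 18.0 ± 0.802 per kilobase, and each neighbouring pair was apart by more than its SDs. The early factor *Cebpa* thus had the lowest level per kilobase of the 7 in both genotypes, and the late factor *Cebpe* stood above the rest beyond the spread in *Ltbr*-/- samples.

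Ratios within a sample do not depend on how samples were scaled against each other, so each gene was set against *Cebpa* in the same sample. The log2 ratio of *Cebpe* to *Cebpa* was 4.85, 4.92 and 4.73 in *Ltbr*-/- samples and 3.97, 3.74 and 4.03 in Ly5.1 samples, a difference of 0.92 with no overlap. The ratio of *Cebpb* to *Cebpa* was 3.01, 3.15 and 3.04 against 2.35, 2.51 and 2.59, a difference of 0.59, and that of *Cebpd* to *Cebpa* was higher by 0.39, also without overlap. The ratio of *Cebpg* to *Cebpa*, 2 genes that did not pass on their own, was 1.96, 2.04 and 2.0 in *Ltbr*-/- samples and 1.90, 1.67 and 1.78 in Ly5.1 samples, a difference of 0.22 without overlap. Those 4 ratios reached the smallest exact permutation p of 0.1 (two-sided, 3 against 3), which was 0.15 after adjustment over the 6 ratios. All 6 share *Cebpa*, so each difference is the gene's own log2 fold change minus the −0.08 of *Cebpa*. The ratios are therefore not separate from the single-gene results, and *Cebpg* was separated only against this shared gene. Among single tested genes 30.4% did not overlap, and the share for ratios was not determined. The ratios of *Cebpz* and *Irf8* to *Cebpa* differed by 0.00 and −0.01, with overlapping groups and exact permutation p = 1.0 each.

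**Figure D3:**
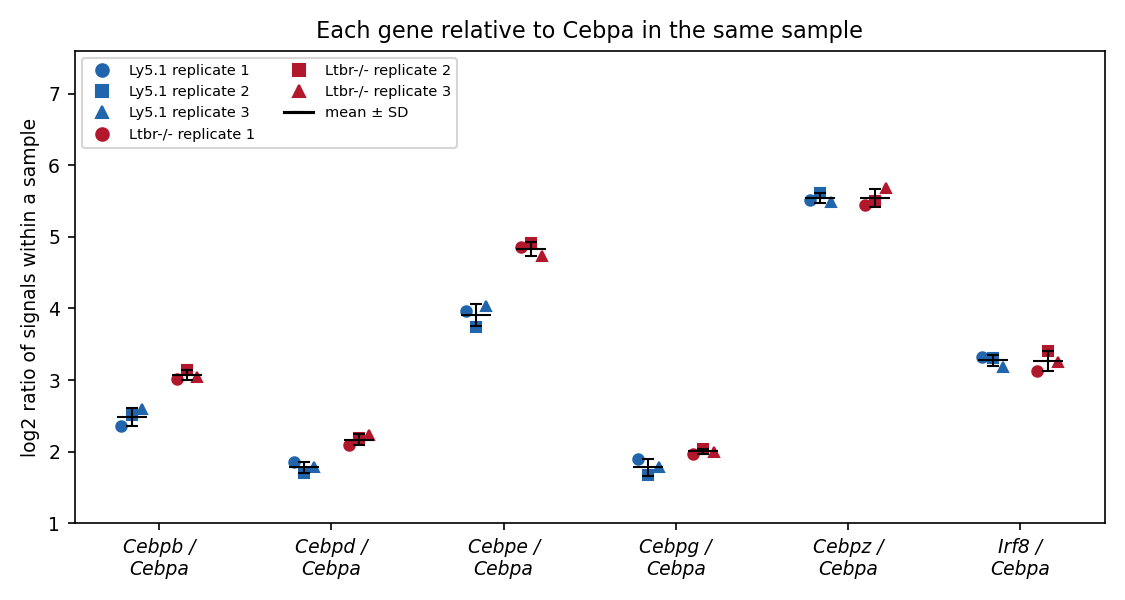
Log2 ratio of each gene's signal to that of Cebpa in the same sample, for 3 Ly5.1 (blue) and 3 Ltbr-/- (red) samples, with bars for the mean ± SD. The ratios of Cebpb, Cebpd, Cebpe and Cebpg lie higher in every Ltbr-/- sample, and those of Cebpz and Irf8 overlap.

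The promoters of granule genes that C/EBP and PU.1 proteins are known to act on are shown before their values. *Ltf* (lactoferrin) and *Ngp* (neutrophilic granule protein) are secondary granule genes, and the capitals mark TTNNGNAAT, a spelling of the C/EBP consensus in which N is any base, on the printed strand in *Ltf* 75 bases before the start (chr9:111019092-111019291, plus strand) and on the other strand in *Ngp* 139 bases before it (chr9:110419608-110419807, plus strand).
Ltf: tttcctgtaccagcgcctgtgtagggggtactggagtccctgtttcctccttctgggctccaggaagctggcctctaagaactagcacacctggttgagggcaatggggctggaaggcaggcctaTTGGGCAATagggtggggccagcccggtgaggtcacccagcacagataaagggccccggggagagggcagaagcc
Ngp: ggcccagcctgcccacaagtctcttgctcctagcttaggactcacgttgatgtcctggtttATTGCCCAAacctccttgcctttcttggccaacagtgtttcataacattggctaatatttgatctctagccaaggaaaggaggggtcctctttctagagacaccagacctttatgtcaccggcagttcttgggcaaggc
Of the 13 secondary and tertiary granule genes with a promoter in the table, 6 hold a match to TTNNGNAAT, against 11.5% of all windows. The primary granule gene *Elane* (neutrophil elastase, chr10:79886112-79886311, plus strand) is shown for GAGGAAGT, a spelling of the PU.1 site, in capitals 85 bases before the start.
Elane: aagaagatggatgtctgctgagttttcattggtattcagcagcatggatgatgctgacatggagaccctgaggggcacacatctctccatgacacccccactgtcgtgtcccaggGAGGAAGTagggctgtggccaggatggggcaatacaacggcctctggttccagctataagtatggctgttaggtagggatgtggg
GAGGAAGT is held by 3 of 8 primary granule genes with a promoter in the table (*Elane*, *Mpo* and *Prtn3*) and by 3.20% of all windows. Neither spelling was limited to 1 list. TTNNGNAAT is held by 2 of those 8 primary granule genes, and GAGGAAGT by 3 of the 13 secondary and tertiary ones. All 4 printed sequences are from RefSeq on GRCm38.p6, both strands were searched, and each printed window held matches to only 1 of the 3 spellings, so that none overlapped another. Spellings and genes were chosen after the values were known.

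Genes of the secondary and tertiary granule list, several of them known targets of C/EBPε, were lower while *Cebpe* was higher. Of 13 tested, 9 fell with an adjusted p under 0.05, 0 rose and 4 did not pass, 0 were called at 1.5-fold, and the list median was −0.37. For this and the following lists, the shares over all tested genes were 4.18% lower and 10.6% higher by that p threshold, and 2.78% called. With samples centred on ribosomal protein genes the list median was −1.23, below the −0.021 of *Cebpe*. *Camp* (cathelicidin) was at 4085, 3918 and 4059 in *Ltbr*-/- samples and at 5781, 5652 and 6512 in Ly5.1 samples, a log2 fold change of −0.57 (limma, adjusted p = 1.41e-07). *Ltf*, whose promoter is printed above, was at 3883, 3680 and 3912 against 5717, 5213 and 5312, a log2 fold change of −0.50 (limma, adjusted p = 1.56e-06). For both genes the groups were far apart compared with the spread within them. *Ngp*, named after its value was seen, was at 4112, 4122 and 4018 against 5749, 5694 and 5479, a log2 fold change of −0.47 (limma, adjusted p = 3.71e-06).

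Primary granule genes, which are switched on earlier and depend on C/EBPα, PU.1 and MYB, fell in 6 of 10 and rose in 1, with 0 called and a list median of −0.27. *Ctsg* (cathepsin G) was at 1083, 1071 and 993 against 1518, 1306 and 1578, with a log2 fold change of −0.48 (limma, adjusted p = 0.000106). *Lyz2* (lysozyme) fell by 0.42 on the log2 scale, and *Elane*, named for its promoter, by 0.31 (limma, adjusted p = 0.00554). The member that rose was *Serpinb1a*, an inhibitor of the granule proteases and not a protease itself, at 0.44 (−0.42 with samples centred on ribosomal protein genes).

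The same granule genes are also neutrophil markers, and 9 of the 10 neutrophil markers are on the secondary and tertiary list. Their summed signal was between 30261 and 30498 in *Ltbr*-/- and between 40367 and 43684 in Ly5.1 samples, and 7 of the 10 fell. *Ly6g*, the surface marker that defines mature neutrophils, was at 19.2, 18.6 and 18.5 against 21.1, 20.8 and 19.3, close to the lower limit of the tested genes, a mean signal of 14.4. In bulk samples fewer cells of a type and less RNA per cell cannot be told apart, and the part of neutrophil-lineage transcripts in these results was not tested. In the study's methods an antibody to Gr1 was among those used for lineage depletion, and the sorted cells were gated as lineage-negative sca1+ c-kit+. Whether mature granulocytes remained in the samples was not tested. On the deposited scale *Cebpe* was higher where these markers were lower.

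Eosinophil genes, the other program linked to C/EBPε, had 1 of 7 tested genes higher and 0 lower, with a median of 0.10, or −0.76 with samples centred on ribosomal protein genes. That gene was *Epx* (eosinophil peroxidase), at 540, 666 and 594 in *Ltbr*-/- and 307, 379 and 421 in Ly5.1 samples. Its groups did not overlap, and its log2 fold change of 0.71 was called (limma, adjusted p = 2.20e-06) but was −0.15 under that centring. Receptors for the myeloid cytokines that act through or upstream of C/EBP proteins moved both ways. *Csf2rb* (0.48), the shared chain of the IL-3, IL-5 and GM-CSF receptors, and *Il3ra* (0.47) rose, though both were below 0 under that centring, at −0.38 and −0.39. *Csf3r*, the G-CSF receptor, was at 2055, 1730 and 1996 against 2760, 2487 and 2349, a log2 fold change of −0.39 (limma, adjusted p = 0.000862). *Flt3*, the receptor of early lymphoid and dendritic progenitors, fell by 0.28 on the log2 scale. Of the 7 tested receptors 2 thus rose and 2 fell.

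**Figure D4:**
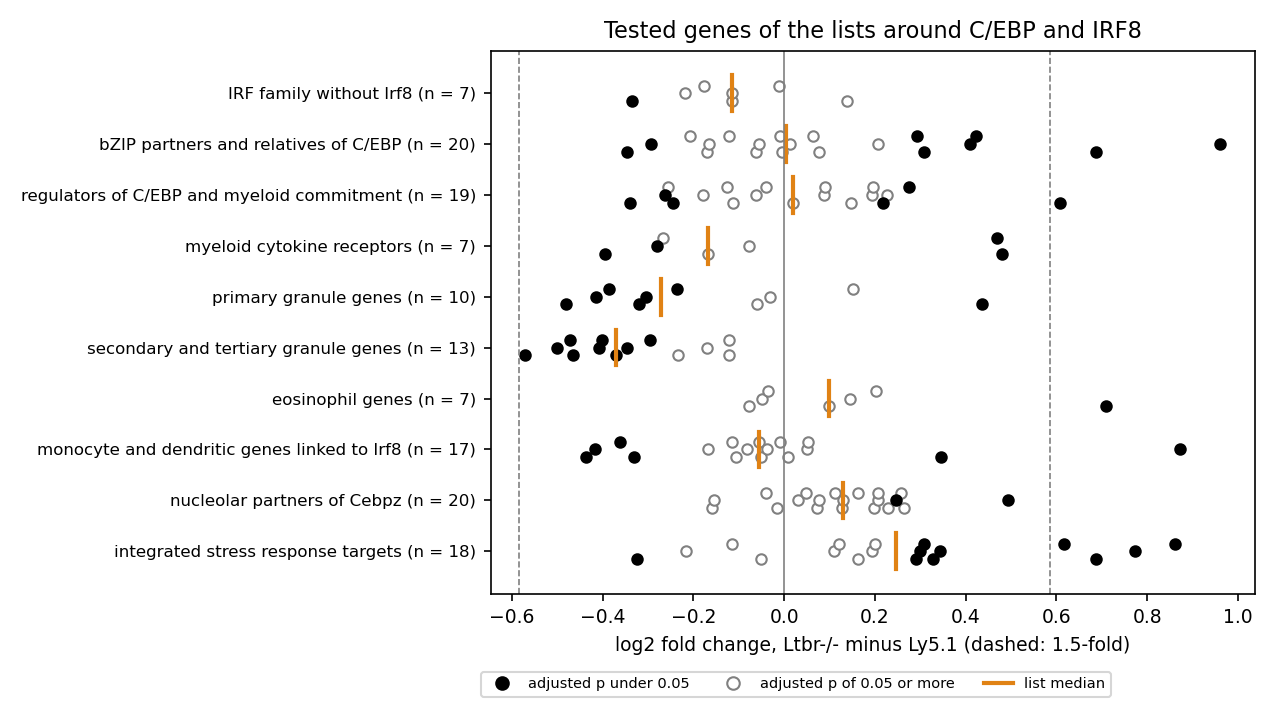
Log2 fold change (Ltbr-/- minus Ly5.1) of every tested gene in 10 lists around the C/EBP factors and IRF8, with filled points for an adjusted p under 0.05, open points for the rest, an orange bar for the list median and dashed lines at 1.5-fold. Secondary and tertiary granule genes lie at or below −0.12 with a median of −0.37, and integrated stress response targets have a median of 0.25, or −0.61 when samples are centred on ribosomal protein genes.

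Of the other bZIP genes, which can pair with C/EBP proteins or compete for their sites, 6 of 20 tested rose, 2 fell and 2 were called higher. *Nfil3*, a repressor that binds related sites, was at 1049, 1285 and 1171 in *Ltbr*-/- and at 611, 572 and 612 in Ly5.1 samples, with a log2 fold change of 0.96 (limma, adjusted p = 1.62e-10), larger than that of *Cebpe*, and it stayed above 0 (0.10) with samples centred on ribosomal protein genes. *Atf5*, a stress-induced factor that pairs with C/EBP proteins, was called at 0.69 (limma, adjusted p = 8.19e-07; −0.17 under that centring). *Jun* and *Fos*, the subunits of AP-1, fell by 0.35 and 0.29. *Atf4*, the gene of the partner of C/EBPγ, was higher by 0.29 (limma, adjusted p = 0.00334). ATF4 has its targets on the integrated stress response list, where 9 of 18 tested genes rose, 1 fell and 4 were called. This list is not separate from the others, since *Atf5* and *Ddit3* are also on the bZIP list and *Trib3* on that of regulators. *Asns* (asparagine synthetase) was at 1980, 1895 and 2033 against 1103, 1109 and 1038, a log2 fold change of 0.86 (limma, adjusted p = 2.13e-10) that was close to 0 (0.0016) under the centring on ribosomal protein genes. *Slc3a2*, the heavy chain of amino acid transporters, and *Phgdh*, of serine synthesis, were called at 0.77 and 0.62, and were at −0.087 and −0.24 under that centring, while *Vldlr*, a lipoprotein receptor, fell by 0.32.

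Regulators of C/EBP genes and of myeloid commitment rose in 3 and fell in 3 of 19 tested. *Id1*, an inhibitor of helix-loop-helix factors, was called at 0.61 (limma, adjusted p = 2.75e-05; −0.25 with samples centred on ribosomal protein genes). *Runx1*, which acts on myeloid enhancers, was higher by 0.27 (−0.59 under that centring), and *Etv6* and *Myb*, both factors of immature cells, fell by 0.34 and 0.26. *Sfpi1*, the gene of PU.1, did not pass, at 0.23 (limma, adjusted p = 0.0664; −0.63 under that centring).

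Around *Irf8*, the other interferon regulatory factors gave 1 lower gene, 0 higher and 6 that did not pass, with a median of −0.12. *Irf1*, an interferon-responsive activator, was at 892, 854 and 904 against 1107, 1202 and 1041, a log2 fold change of −0.34 (limma, adjusted p = 0.00676). Monocyte and dendritic genes linked to IRF8 rose in 2 and fell in 4 of 17 tested, with a median of −0.06. *Bst2*, an interferon-induced surface protein of plasmacytoid dendritic cells, was the 1 called gene, at 3401, 3846 and 3584 against 2064, 1660 and 2232, a log2 fold change of 0.87 (limma, adjusted p = 7.53e-10; 0.012 with samples centred on ribosomal protein genes). The other gene that rose was *Cst3* (cystatin C), at 0.34 (−0.52 under that centring). *H2-Aa* and *Cd74*, of MHC class II presentation, fell by 0.44 and 0.42.

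Among monocyte or macrophage markers, 2 of 10 tested rose and 0 fell, but the list median was −0.05 and only 3 of the 10 had values above 0. Those that rose were the macrophage surface protein *Emr1* (F4/80), called at 0.83, and *Cd68*, at 0.28 (−0.027 and −0.58 with samples centred on ribosomal protein genes). Their summed signal was between 3608 and 3948 in *Ltbr*-/- and between 3178 and 3438 in Ly5.1 samples. Mast cell or basophil markers, some of them known to depend on C/EBP proteins, rose in 2 and fell in 1 of 7, with a median of −0.04. Their sum was between 7798 and 8356 against between 4331 and 4962, mostly through *Cma1* (mast cell chymase), called at 1.32, with *Cpa3* (carboxypeptidase) at 0.56 and *Prss34*, of basophils, lower by 0.41. With samples centred on ribosomal protein genes *Cma1* was at 0.46 (limma, adjusted p = 1.19e-06) and *Cpa3* at −0.30. The part of these cell types in the values of *Cebpb* and *Cebpe* was not tested.

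The stem cell markers, those of the sorted cells, leaned lower in *Ltbr*-/- samples, with 13 of 14 values below 0 and a median of −0.16. Of the 14, all tested, 1 rose and 3 fell, with *Gata2* at 0.22 and *Ly6a* and *Cd34* lower by 0.39 and 0.31. Of the markers of other lineages, T or NK cell genes had 0 of 3 tested genes past the threshold, with sums of 89.0 to 90.5 and 87.5 to 93.4. B cell genes had 2 tested, with *Cd79a* called at 0.62. The erythroid list had *Hba-a1* called at 0.99 (0.13 with samples centred on ribosomal protein genes) and *Car2* lower by 0.26. The megakaryocyte list had *Itga2b* at 0.31 and *Pf4* lower by 0.33, with 1 of its 5 tested genes above 0. Over the alternatives other than that centring and leaving out samples, the lowest value was 0.013 for *Itga2b* and 0.084 for *Gata2*.

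Cebpz works with nucleolar proteins that assemble the large ribosomal subunit. Of 20 such genes, all tested, 2 rose, 0 fell and 18 did not pass, with a median of 0.13 (−0.73 with samples centred on ribosomal protein genes). *Npm1* (nucleophosmin) was at 6385, 6464 and 6507 against 4402, 4720 and 4645, a log2 fold change of 0.49 (limma, adjusted p = 9.72e-07; −0.37 under that centring). *Nip7*, a ribosome biogenesis factor, was higher by 0.25 (−0.61 under that centring). *Cebpz* itself was at −0.08, on the other side of 0 from the median of these genes.

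Over all 10 lists around the C/EBP factors and IRF8, which hold 135 different tested genes, 24 rose and 28 fell with an adjusted p under 0.05. By the same rule 10.6% of all tested genes were higher and 4.18% lower. The lists were chosen with earlier results of these data known, so no test was made of this contrast.

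The 2 nearest genes on each side of every member, by a RefSeq gene table, gave 24 different genes outside the family, of which 17 were tested. One of the 17 was called, where 2.78% of all tested genes were called and 14.8% had an adjusted p under 0.05. It was *Cox4i1*, a subunit of cytochrome oxidase next to *Irf8*, at 14458, 14809 and 15407 in *Ltbr*-/- and 7785, 7562 and 9100 in Ly5.1 samples. Its log2 fold change was 0.87 (limma, adjusted p = 6.61e-13, and 0.014 with samples centred on ribosomal protein genes) beside −0.10 for *Irf8*. *Mzt2*, next to *Cebpd*, was higher by 0.45 (limma, adjusted p = 0.000580; −0.41 under that centring), so *Cebpd* and this neighbour were higher together. Next to *Cebpe*, *Acin1* was lower by 0.20 (limma, adjusted p = 0.0497). *Eif2ak2*, next to *Cebpz*, was at 463, 343 and 319 against 464, 462 and 466, with *Ltbr*-/- replicate 1 at the Ly5.1 level. Its log2 fold change was −0.33 (limma, adjusted p = 0.0323), with overlapping groups and an exact permutation p of 0.2. The other 13 neighbours had values between −0.18 and 0.22 and did not pass.

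The genes with profiles most like those of the 3 members that rose were found by the root mean square distance of log2 values, each gene centred on its own mean over the 6 samples. For *Cebpe* they were *Itgb4* (distance 0.07), *Slc25a1* (0.07) and *Spns3* (0.08), against a median distance of 0.45 over the tested genes. For *Cebpb* they were *Trappc6a* (0.02), *Lonp1* (0.04) and *Gng5* (0.04), with a median of 0.28. For *Cebpd* they were LOC101055909 (0.02), *Park7* (0.03) and *Mtif3* (0.03), with a median of 0.19. Likeness over 6 samples in 2 groups rests mainly on the difference between the groups, since the log2 fold changes of these 9 genes were 0.31 to 0.83.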

How the data were processed

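RNA-seq was made from sorted LT/ST-HSCs with a stranded mRNA kit. Reads were processed by the authors in SeqMan NGen and ArrayStar, who deposited 1 signal value per gene and sample, taken here as 2 to the power of a regularized log value (from the methods and the values); the submitters' processing notes name DESeq2 and GRCm38 (mm10). Groups and replicate numbers came from the sample titles. Of repeated names the row with the highest mean was kept. The members and lists were chosen with earlier results of these data known. Log2 signal was fitted with limma (version 3.58.1, R 4.3.3, eBayes with trend) for 3 *Ltbr*-/- against 3 Ly5.1 samples over the 13108 names in the upper 50% by mean, with Benjamini-Hochberg adjustment. The test was checked on simulated data. Single genes and 6 within-sample ratios were compared by two-sided exact permutation tests. All 7 members were named, and in each list the 2 genes that rose most and the 2 that fell most past the p threshold, and those called; per member past the threshold, the 3 most alike profiles. *Ngp*, *Elane*, *Sfpi1*, *Ly6g*, *Mpo*, *Prtn3*, *Atf4*, *Ddit3* and *Trib3* were added after their values were seen. Positions are from GENCODE M21 and neighbours and promoters from RefSeq, both on GRCm38. Alternatives were the scaling, filter, pseudocount, prior, a length and GC correction, a replicate block and leaving out samples. Samples are pools of chimeras, so the spread behind the p-values is that between pools. The limma p-values use a variance drawn towards the trend over all tested genes, not that of the single gene alone. The labels name no batch.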

Additional observations from a re-analysis of the deposited data

How the results depend on the processing

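Without any 1 sample, the log2 fold change was 0.73 to 0.92 for *Cebpe*, 0.44 to 0.58 for *Cebpb*, 0.24 to 0.35 for *Cebpd*, 0.05 to 0.20 for *Cebpg*, −0.12 to −0.06 for *Cebpa*, −0.14 to −0.04 for *Cebpz* and −0.14 to −0.06 for *Irf8*; 2 to 3 members had an adjusted p under 0.05, 1 was called higher and 0 lower. *Cebpd* lost its adjusted p without *Ltbr*-/- replicate 3 and without Ly5.1 replicate 2. Genes of the 10 pathway lists past the p threshold numbered 18 to 25 higher and 22 to 27 lower, and neighbours 2 to 4, with 2 without *Ltbr*-/- replicate 2 or 3 and without Ly5.1 replicate 1 or 2. With no filter on the mean, *Cebpb* (0.50) and *Cebpd* (0.31) lost the threshold, 1 member passed it, and 11 list genes were higher, 9 lower and 1 neighbour past it. The unfiltered fit covers all 26216 names, of which 9034 had the same value in all 6 samples. Over the alternatives other than centring on ribosomal protein genes and leaving out samples, the highest limma adjusted p was 0.0419 for *Cebpe* and 0.000283 for *Ltbr*. In the upper 25% of names by mean, which leaves *Cebpe*, *Cebpz* and *Irf8*, 1 member passed. Neighbours numbered 2 with no trend and 2 with the length and GC correction. With no fold threshold 3 members counted as called, and with a fold of at least 2 the count was 0. Under quantile normalization, median centring, a pseudocount of 1, no trend, the robust prior and the length and GC correction, each of the 7 members kept its direction and its side of the p threshold.

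Centring on ribosomal protein genes moved the median of all tested genes to −0.87, and directions are to be read against it. *Cebpa* (−0.94), *Cebpz* (−0.94) and *Irf8* (−0.96) then passed the p threshold, and *Cebpb* (−0.36), *Cebpd* (−0.55), *Cebpe* (−0.021) and *Cebpg* (−0.72) changed sign; 0 members were called higher and 4 lower, 0 had an adjusted p under 0.05 and a positive value, 0 list genes were higher and 129 lower, and 16 neighbours passed. The sign also changed for *Atf5* (−0.17), *Id1* (−0.25), *Runx1* (−0.59), *Csf2rb* (−0.38), *Il3ra* (−0.39), *Serpinb1a* (−0.42), *Epx* (−0.15), *Cst3* (−0.52), *Npm1* (−0.37), *Nip7* (−0.61), *Slc3a2* (−0.087), *Phgdh* (−0.24), *Gata2* (−0.64), *Emr1* (−0.027), *Cd68* (−0.58), *Cpa3* (−0.30), *Cd79a* (−0.24), *Itga2b* (−0.55), *Trappc6a* (−0.33), *Lonp1* (−0.33), *Gng5* (−0.42), LOC101055909 (−0.55), *Park7* (−0.51), *Mtif3* (−0.54), *Itgb4* (−0.042), *Slc25a1* (−0.095), *Spns3* (−0.032), *Mzt2* (−0.41), *Tmem189* (−0.67) and *Sfpi1* (−0.63). *Nfil3* (0.10), *Hba-a1* (0.13), *Cox4i1* (0.014), *Bst2* (0.012) and *Asns* (0.0016) stayed above 0 without passing the p threshold. *Cma1* (0.46, limma, adjusted p = 1.19e-06) stayed above 0 and past it. Whether ribosomal protein genes are a fair reference for these samples was not tested. The ratios to *Cebpa* were each within 1 SD of their value under every alternative tried.

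Deviations from the group means had correlations of −0.01 to 0.09 between same-numbered samples of the groups over the tested genes. Between differently numbered samples they were −0.07 to 0.05. With 3 samples per group these values cannot show whether the numbers mark pairs. With the replicate block, *Cebpe*, *Cebpb* and *Cebpd* had adjusted p-values of 9.51e-07, 0.000698 and 0.0227 in limma, 3 members passed the p threshold and 1 was called, and 24 list genes were higher and 29 lower. The tables hold no counts, so the reads behind each gene's value are unknown, and if the values are regularized log values, as taken here, differences of weakly expressed genes are understated.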
